A study of Homo sapiens with 24 samples.

Results

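The 5 connexin genes GJA1, GJD2, GJB1, GJB2 and GJC1, picked for their place in the coupling of islet cells, were followed in a comparison of the promoter mark H3K4me3 between senescent and non-senescent EndoC-βH3 cells. Each gene was given every H3K4me3 region that lay within 2 kb of one of its annotated transcription start sites, and the region of highest mean signal stood for its promoter. By that rule 2 of the 5 genes had a promoter region, GJA1 and GJD2, and 3 had none, GJB1, GJB2 and GJC1. The whole table held 97545 regions and gave a promoter region to 15085 of 20020 protein-coding genes. The group was selected on the same comparison, because GJA1 was called lowered in it, so the values of GJA1 below are a description, and its adjusted p values, deposited or recomputed, are no independent test. GJD2 was included as the connexin of the beta cell.

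Connexins are membrane proteins that assemble into hemichannels, and hemichannels of neighbouring cells dock to form gap junctions, through which ions and small metabolites pass. GJD2 encodes connexin 36, the connexin that joins beta cells electrically and lets an islet respond to glucose as a unit. GJA1 encodes connexin 43, which is widely expressed, in heart muscle, connective tissue cells and endothelium among others. GJB1 encodes connexin 32, a liver and exocrine pancreas connexin, GJB2 encodes connexin 26, known for its part in hearing, and GJC1 encodes connexin 45 of the heart and vessels. Trimethylation of lysine 4 on histone H3 (H3K4me3) marks the start sites of genes that are active or poised, and its level is a chromatin measurement, not one of mRNA, protein or junctions.

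EndoC-βH3 is a human beta-like cell line from fetal pancreas, immortalised with hTERT and the SV40 large T antigen, and it carries a tamoxifen-activated CreER recombinase that cuts these transgenes out. The non-senescent group held 4 samples labelled control, and the senescent group held 4 samples in which 4-hydroxytamoxifen (4-OHT) had been given for 3 weeks. All samples were labelled wild type, and 500000 cells were used for each. The labels give the 4-OHT dose as 1 mM, whereas the methods give micromolar units. Because 4-OHT removes the transgenes, senescence and loss of large T antigen and hTERT cannot be told apart here. All samples came from 1 cell line, and nothing states that replicates came from separate cultures, so the errors may be technical in part. Profiling was by MINT-ChIP, in which the chromatin of each sample is barcoded and pooled before the antibody is added.

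The values are those of a finished comparison of 4 against 4 samples, with no value per sample or per group, so levels are means over both groups and depth is unknown. Its header does not name the direction. It was inferred from the values, with log2 fold changes above 0 taken to mean more of the mark in the senescent group, since 21 of 22 proliferation genes lay below 0, with 6 called lowered (PCNA, MCM2, CCNE2, AURKB, NDC80 and TPX2), and the beta cell genes ABCC8 and IAPP lay above 0, at 1.18 and 3.50. These genes therefore test nothing, and every direction given here depends on that reading. A promoter was called changed at an adjusted p below 0.05 and a fold change above 1.5. By this rule 104 of 14765 tested promoters were called lowered (0.704%) and 74 were called raised (0.501%). Promoters were counted by gene, so a region shared by several genes counted once for each of them.

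The sequences around the start sites of GJA1 and GJD2 are shown for where they stood against the H3K4me3 regions. They were read from hg38, 5′ to 3′ on the strand of the gene. The first is the stretch just before the earliest start of GJA1 (chr6:121435396-121435594, plus strand), which lay outside the region of the gene. It held 1 CpG in 199 bases.
GJA1 before the first start: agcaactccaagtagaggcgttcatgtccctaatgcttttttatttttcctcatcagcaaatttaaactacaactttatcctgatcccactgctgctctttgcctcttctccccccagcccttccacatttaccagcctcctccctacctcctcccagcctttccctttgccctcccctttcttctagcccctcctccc
The second, a stretch of 30 bases that overlaps the end of the first (chr6:121435587-121435616), is shown for a match to the AP-1 motif, in capitals, at 48 bases before the canonical start.
GJA1 AP-1 match: ctcctcccagtTGAGTCAgtggcttgaaac
The last is the stretch before the start of GJD2 (chr15:34754999-34755248, minus strand), inside the region of that gene. It held 31 CpG in 250 bases, and capitals mark a GC box.
GJD2 before the start: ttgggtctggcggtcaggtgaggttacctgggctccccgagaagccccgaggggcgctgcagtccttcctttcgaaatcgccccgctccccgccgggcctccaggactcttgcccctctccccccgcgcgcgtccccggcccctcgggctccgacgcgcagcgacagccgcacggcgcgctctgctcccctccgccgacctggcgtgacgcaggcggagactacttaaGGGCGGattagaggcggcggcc

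GJA1 was the only one of the 5 genes called, with lower H3K4me3 in senescent cells. Its region (chr6:121436498-121438426, 1928 bp) had a mean normalised count of 42.6 over both groups. The log2 fold change was −1.04 with a standard error of 0.25 (n = 4 and 4) and a 95% interval from −1.52 to −0.56. On the linear scale the mark was 2.05 times lower, with an interval from 1.47 to 2.86. The adjusted p was 0.00794 in the authors' DESeq2 fit over all regions. By size of the change GJA1 stood 54th among the 104 lowered promoters, and by adjusted p it stood 40th. A promoter with its standard error would have been called from a fold change of 1.80 on. In a bulk measurement, fewer cells that carry the mark and less of the mark per cell cannot be told apart.

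GJD2 showed no detectable change. Its region (chr15:34753335-34756304, 2969 bp) had a mean normalised count of 33.9. The log2 fold change was 0.20 with a standard error of 0.30 (n = 4 and 4), and the adjusted p of the deposited Wald test was 0.825. The 95% interval ran from −0.39 to 0.79, that is from a fold change of 0.765 to one of 1.73, so modest changes either way lie within the error. At this precision a call would have needed a fold change of 2.05, about the size seen at GJA1. The difference between the changes of GJA1 and GJD2 was not tested, since GJA1 was chosen for its call.

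Per kilobase, the level was 22.1 normalised counts at GJA1 and 11.4 at GJD2. These stood at the 60.7th and 21.7th percentile of promoter regions, against a median of 19.0. GJA1 was thus near the middle of the range and GJD2 in its lower part. The levels have no replicate error in the table, so their order was not tested. For GJB1, GJB2 and GJC1 no level can be given, because regions exist only where peaks were called. The lack of a region says that no peak stood near their starts in the table as analysed here, not that the mark was at 0.

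**Figure D1:**
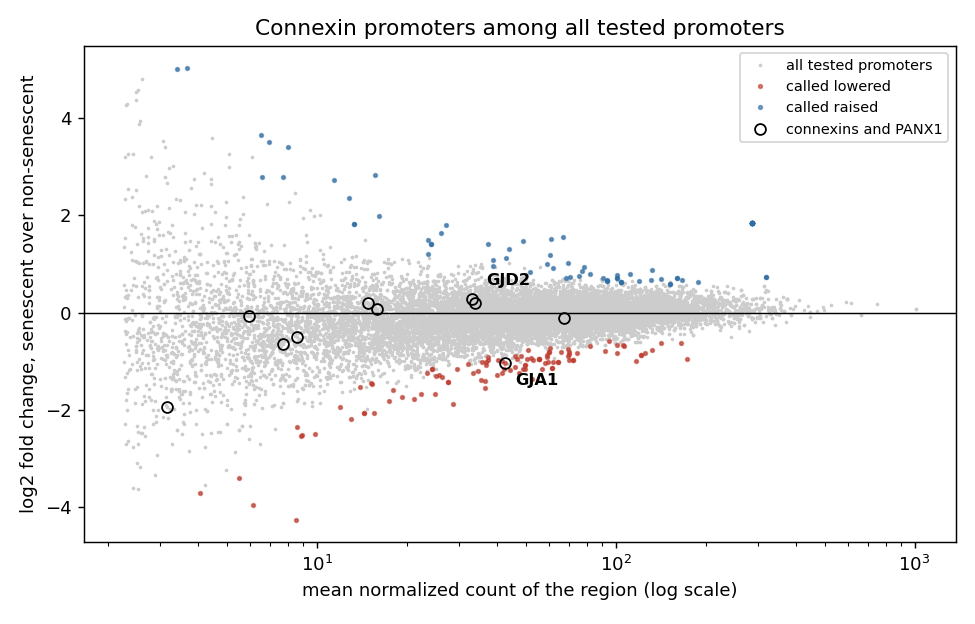
Mean normalised count (log scale) against log2 fold change of H3K4me3 for the 14765 tested promoters, with called promoters in colour and connexins and PANX1 ringed. GJA1 lies among the lowered promoters at −1.04, and GJD2 lies near 0 at 0.20.

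The region of GJA1 did not cover its canonical start. It began 852 bp and ended 2780 bp downstream of it, wholly within the first intron of the canonical transcript (ENST00000282561.4, start at 121435646 on chromosome 6). GENCODE lists 4 transcripts of the gene, each of 2 exons, all spliced to the exon that begins at 121446832. The region covered 2 further starts, 1736 and 1853 bp downstream of the canonical one. The first exons from these starts are untranslated, and the region held no coding base of any of the 4 transcripts. The value therefore describes chromatin at the downstream starts and in the intron, and the mark at the canonical start has no value of its own.

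A region that leaves out the canonical start was no rarity. The canonical start lay inside the main region for 9635 of 14765 tested promoters (65.3%), and for 55 of the 104 lowered ones (52.9%). For GJD2 the start lay inside. Its region reached from 1306 bp upstream to 1663 bp downstream of the start (34754998 on chromosome 15) and covered the upstream flank, exon 1, the whole intron of 1045 bp and the first bases of exon 2, with 109 coding bases in all. It also covered the start of GJD2-DT, a long noncoding RNA that is transcribed the other way from a start 86 bp away. The signal of the 2 starts cannot be separated.

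**Figure D2:**
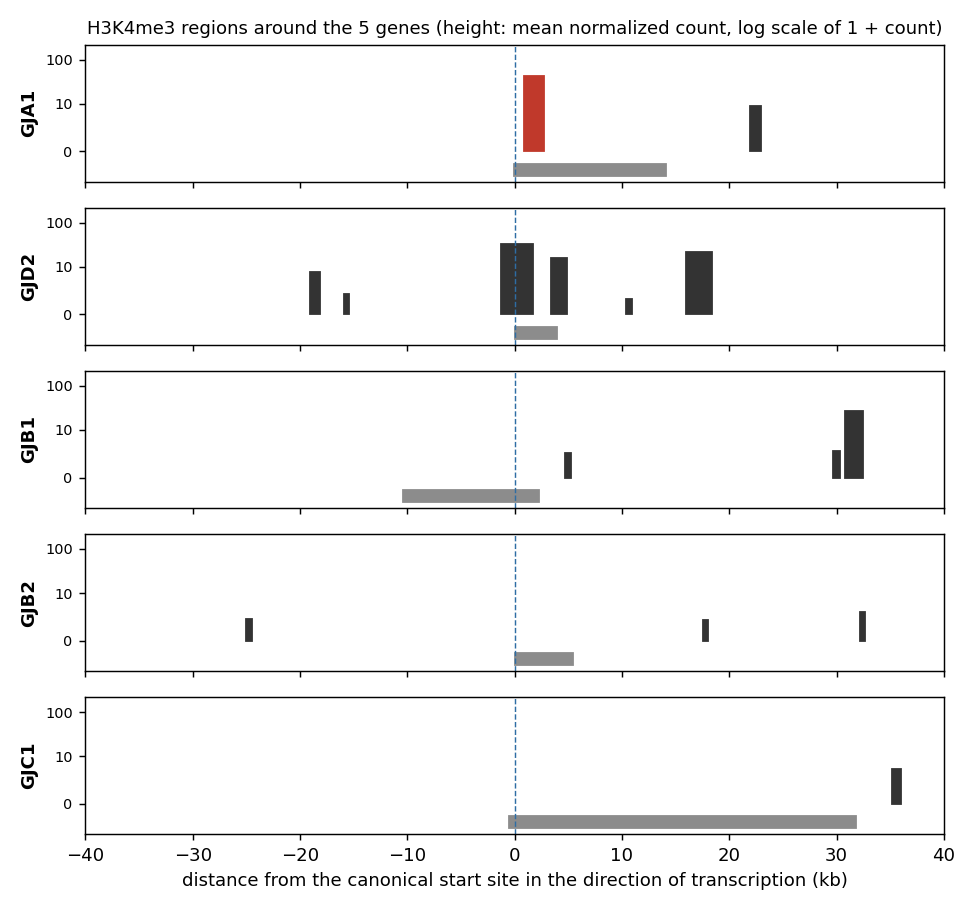
H3K4me3 regions within 40 kb of the canonical start of each of the 5 genes (x axis, kb along the direction of transcription), with bar height giving the mean normalised count on a log scale, the gene in grey and the lowered region in red. The GJA1 region begins 852 bp after the start, the GJD2 region spans it, and no region stands within 2 kb of any start of GJB1, GJB2 or GJC1.

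The next regions outside the 2 kb windows were weak, and none was called. For GJA1 the nearest lay 20.1 kb from the closest start, beyond the end of the gene (chr6:121457604-121458563), with a mean count of 9.06. Its log2 fold change was 1.54 with a standard error of 0.70, opposite in sign to the promoter, and its adjusted p was 0.287. For GJD2 the nearest lay 3.43 kb downstream, over the 3′ end of the gene (chr15:34750086-34751568), with a mean count of 16.2, a log2 fold change of 0.00 and an adjusted p of 0.999.

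GJB1, which has 10 annotated starts spread from 71212811 to 71223224 on chromosome X, had its nearest region 4.71 kb away (chrX:71227931-71228500). It had a mean count of 2.36, a log2 fold change of 3.15 with a standard error of 1.55 and an adjusted p of 0.348. This was a thin region with a wide error, close to the filter on low signal. The nearest region to GJB2 lay 14.4 kb from a start (chr13:20174911-20175411) with a mean count of 1.89, too low for an adjusted p. The nearest to GJC1 lay 9.85 kb away (chr17:44794300-44795112), with a mean count of 4.68, a log2 fold change of −0.90 and an adjusted p of 0.666.

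Within 100 kb of the starts of the 5 genes there were 38 regions, of which 26 were tested. Of these 1 was lowered, the GJA1 promoter region itself, and none was raised, against 0.263% lowered and 0.859% raised among all 72959 tested regions. Tested by the same Wald model at an unadjusted p below 0.05, 2 of the 26 were lower and 4 were higher, levels that 4.3% and 9.14% of all tested regions passed. Of the 12 regions too weak for an adjusted p, 1 was lower at that level, at chr17:44921514-44922014 near GJC1, with a mean count of 1.42, a log2 fold change of −4.09 and a standard error of 2.00. The second lower tested region stood upstream of GJD2 (chr15:34799037-34800991), with a log2 fold change of −1.04 and an adjusted p of 0.233. Both were named after their values were seen.

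None of the neighbouring promoters was called. On either side of GJA1 stood TBC1D32, a gene of cilium formation, at 0.41 with an adjusted p of 0.148, and HSF2, a heat shock transcription factor, at 0.14 with an adjusted p of 0.832. Beside GJD2, GOLGA8B lay at −0.17 and AQR, a splicing helicase, at 0.00. The neighbours of GJB1 were MED12, a subunit of the Mediator kinase module, at 0.11 and ZMYM3 at 0.40. GJB2 stood between GJA3 and GJB6, both connexins. GJC1 had ADAM11 at −0.23 on one side and the shared promoter of CCDC103 and EFTUD2 at 0.04 on the other.

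The annotated promoters were then compared by sequence, in windows from 250 bases before to 50 bases after the start, taken from RefSeq (GRCh38.p14). The table held windows for 4 of the 5 genes, all but GJC1, among 35116 windows in all. The GJB1 window (chrX:71214989-71215288) did not hold the canonical GENCODE start of that gene, at 71223224, so it does not describe the sequence there. The window of GJD2 was 73.7% G and C with 40 CpG, and that of GJB2 was 71.7% with 33 CpG. The windows of GJA1, 47% with 3 CpG, and of GJB1, 56% with 2 CpG, were poor in CpG beside the medians of 58.7% and 14. The GJD2 window was the only one of the 4 that an H3K4me3 region overlapped, so the CpG-rich GJB2 window stood without one. The H3K4me3 region of GJA1, which lay outside its window, held 38.9 CpG per kilobase, and that of GJD2 held 45.8.

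Motifs were searched on both strands. GJA1 had 1 AP-1 match (TGACTCA, found as TGAGTCA on the gene's strand), which is shown above and occurs in 4.95% of all windows. GJD2 had 1 GC box (GGGCGG), 22 bases before its start, and GJB2 had 3, a motif in 45.0% of windows. No window of the 4 genes held a TATA box (TATAAA, 11.5% of windows), a cAMP response element (TGACGTCA, 1.85%), the E-box CACGTG (7.26%), the E2F motif TTTNGCGC (1.79%) or the RE1 element of REST (0.0683%). No match overlapped another. A match is a string of letters, and binding was not measured.

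The rest of the connexin family offered few promoters to compare with. Of 21 connexin genes, 11 had a promoter region (52.4%), against 75.3% of all protein-coding genes. By subfamily these were 4 of 7 GJA, 3 of 7 GJB, 1 of 3 GJC and 3 of 3 GJD genes, and GJE1 had none. Besides GJB1, GJB2 and GJC1, the genes without a region included GJA4, GJA10 and GJB5. Of the 11 regions, only those of GJD2 and GJC3 held the canonical start of the gene. Of the 9 genes that were tested, GJA1 was the 1 called lowered and none was raised. Over all tested promoters the shares were 0.704% lowered and 0.501% raised. That GJA1 is among those called follows from how the 5 genes were chosen.

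Outside the 5 genes, 7 connexins were tested and none passed even at an unadjusted p below 0.05, a level that 7.08% of all tested promoters passed as lower and 4.78% as higher. Their median log2 fold change was −0.07, beside −0.04 over all promoters. GJA9 lay at 0.29 with a standard error of 0.27, in a region that also serves MYCBP. GJC3 lay at 0.19, GJA5, the connexin 40 of atrium and arteries, at 0.07 and GJB7 at −0.07. GJD4 lay at −0.51 and GJD3 at −0.65, with standard errors of 0.60 and 0.57. GJA3, a lens connexin, had the lowest value, −1.93 with a standard error of 1.13 and an adjusted p of 0.456.

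These regions were weak. The levels of the connexins outside the 5 genes ran from 1.84 to 14.0 normalised counts per kilobase, all below the 22.1 of GJA1. The 11.4 of GJD2 lay within that range, below GJA5 at 14.0 and GJD4 at 11.7. GJB6, a connexin of skin and inner ear, had a mean count of 0.92, too low for an adjusted p, and its log2 fold change of 3.21 had a standard error of 2.69. For all 9 the 95% interval reached past a fold change of 1.5 in at least 1 direction. Of the 3 pannexins, channel proteins that resemble connexins in shape but not in sequence, PANX1 alone had a region, with a log2 fold change of −0.12, a standard error of 0.22 and an adjusted p of 0.868.

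**Figure D3:**
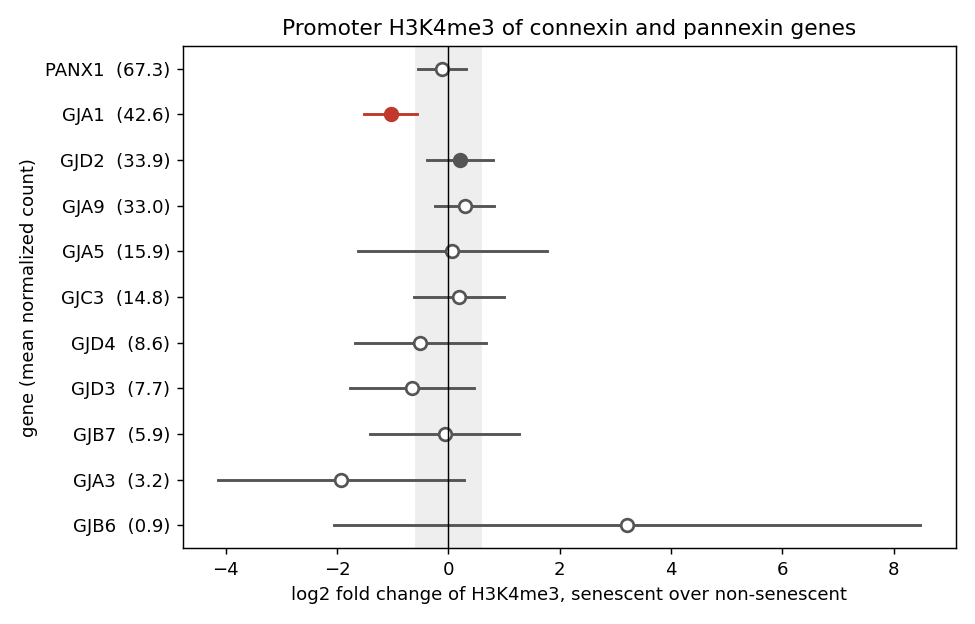
Log2 fold change of promoter H3K4me3 (x axis) with 95% intervals for 10 of the 11 connexin genes with a region and PANX1, ordered by mean normalised count, which is printed beside each gene. Filled points are members of the group of 5, red is called lowered and the grey band is a fold change within 1.5, and the interval of GJA1 runs from −1.52 to −0.56.

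Gap junctions need partners to be placed, held and removed, and 26 such genes were listed, of which 25 were tested. None was called in either direction, and 2 were higher at an unadjusted p below 0.05 in the deposited Wald test, with none lower, where 4.78% of all tested promoters were higher and 7.08% lower. With 25 genes these counts lie near those shares. Their median log2 fold change was 0.00. Of the scaffold and trafficking genes, TJP1, which encodes ZO-1, the scaffold at the rim of connexin 43 plaques, lay at 0.19 with an adjusted p of 0.774. TJP3 had no region.

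The adhesion genes included catenins, which link cadherins to the cell interior. CTNNB1, the gene of beta-catenin, lay at 0.48 with a standard error of 0.15 and an adjusted p of 0.0736, so it missed the threshold. CTNND1 lay at 0.29 with an adjusted p of 0.337. CDH2, which encodes N-cadherin, lay at 0.05 and EPCAM, an epithelial adhesion molecule, at 0.14. Among the turnover and signalling genes, USP8, a deubiquitinase, lay at −0.03, CALM2, 1 of the calmodulin genes, at 0.27 and CSNK1D, a casein kinase, at 0.32, with adjusted p between 0.425 and 0.966 by the deposited Wald test. The lowest value of the 25 was MAPK3 at −0.84 with a standard error of 0.50.

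**Figure D4:**
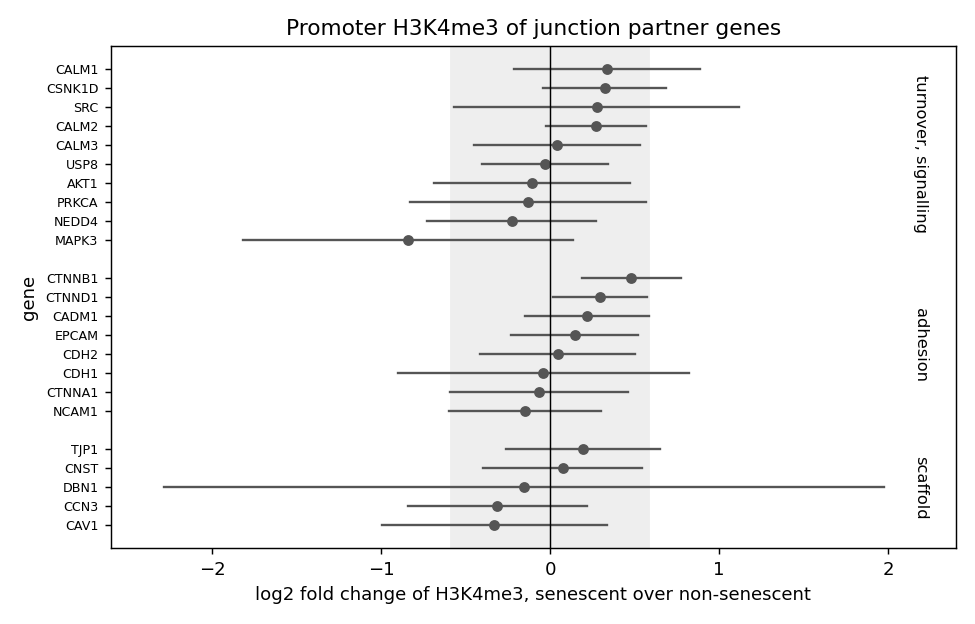
Log2 fold change of promoter H3K4me3 (x axis) with 95% intervals for 23 of the 25 tested partner genes in 3 groups, the grey band marking a fold change within 1.5. No gene shown is called, and CTNNB1 and CTNND1 are those whose intervals lie above 0.

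The cell type label was set against marker genes. Of 15 beta cell markers, 14 had a promoter region, all but MAFA, with a median of 25.1 normalised counts per kilobase and a highest value of 38.1. INS stood at 14.0 per kilobase, in a region shared with IGF2, and IAPP at 7.56. Among alpha cell markers, IRX2 at 31.5 per kilobase and TTR at 20.6 stood above INS and IAPP, and GCG, the glucagon gene, stood at 6.99. TTR was called raised, at 0.87 with an adjusted p of 1.18e-05 by the deposited Wald test. Of 5 acinar markers, 3 had a region, the highest at 6.59 per kilobase. Because GJA1 is known from connective tissue cells and endothelium, markers of those cells are given beside it. Of 8 mesenchymal markers, 7 had a region, with a median of 7.60 normalised counts per kilobase, a range from 3.43 to 23.2 and a summed mean count of 90.0. The highest of these was the ACTA2 region, which is shared with FAS. The other 6 reached at most 9.39 per kilobase and summed to 41.1. All 7 regions left out the canonical start of their gene, so they give no value for the mark at those starts. The regions of INS, IRX2 and GCG also left out theirs. None of the 7 mesenchymal regions was called. Of them 5 lay below 0, with a median log2 fold change of −0.36, where 8287 of all 14765 tested promoters lay below 0. VIM was the lowest at −1.97, with a standard error of 0.78 and an adjusted p of 0.198 by the deposited Wald test. The mean count of the VIM region was only 5.16. COL3A1 at 0.84 and COL1A2 at 0.57 lay above 0, with standard errors of 0.51 and 1.19, and PDGFRB had no region. Of 4 endothelial markers, PECAM1 and KDR had regions, at −0.75 and −0.03, neither called, and CDH5 and VWF had none. Their levels, 15.3 and 15.4 per kilobase, stood above INS, and the PECAM1 region left out its canonical start. Of 4 immune markers, 2 had a region. CD68 stood at 31.9 per kilobase and was not called, in a region shared with MPDU1 that left out the canonical start of CD68. The other immune region stood at 2.65 per kilobase. The 4 ductal markers all lay below 0, with a median of −0.79, and none was called. Ductal regions were weak, with mean counts from 3.54 to 24.1 and a median of 8.90 per kilobase. Standard errors ran from 0.40 at KRT19 to 1.01 at CFTR. The part of other cell types in the value of GJA1 was not tested.

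The values depend on where no change is set. With the median of regions of similar GC content subtracted the log2 fold change of GJA1 was −1.01, and with regions of similar signal and GC content it was −1.03. The median of all regions lay at 0.16 and that of promoters at −0.04. Measured from the median of all regions, GJA1 lay at −1.20 and GJD2 at 0.04.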

How the data were processed

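The data were H3K4me3 MINT-ChIP profiles of 4 senescent and 4 non-senescent EndoC-βH3 samples, and 16 samples of other marks were not analysed here. The authors aligned reads to hg38 with Bowtie, used SAMtools and HOMER, and compared the groups with DESeq2. The mean signal of a region, as deposited, is the mean of normalised counts over the samples. Log2 fold changes, with standard errors, are estimates as deposited by the authors, and the score is the authors' Wald score. The p-value and adjusted p-value are the authors' too, the latter over 72959 regions after a filter on low signal. How peaks were merged and reads counted is not given in the sources used here. The Benjamini-Hochberg adjustment was recomputed and agreed within 1.8e-14.

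No model was refitted. Intervals of 95% were computed from the standard error under a normal distribution. Start sites came from GENCODE release 44, GC content from hg38, and promoter windows from RefSeq. Coordinates were taken as starting from 1. Python 3.11.15, pandas 2.3.3, numpy 2.4.6 and samtools 1.23.1 were used. The steps over all regions were tested on simulated data. Depth per sample is unknown. The members and gene lists were chosen with earlier results of these data known. Some genes and sequences are not reported here. Named genes were otherwise all connexins and pannexins with a region, called genes of other lists, the 2 lowest and 2 highest of each list with at least the median signal, and the nearest neighbours. MAPK3, VIM, COL3A1, COL1A2, INS, GCG, ACTA2, the ductal and the endothelial markers were added after their values were seen. The 15 alternatives changed the window, the region chosen, the thresholds, the adjustment or the value taken as no change.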

Additional observations from a re-analysis of the deposited data

How the results depend on the processing

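Over 15 alternatives the log2 fold change of GJA1 ran from −1.20 to −0.99, with adjusted p (deposited or recomputed Wald test) from 0.000919 to 0.0128, and GJA1 was called lowered in each. That of GJD2 ran from 0.04 to 0.37, with adjusted p from 0.695 to 0.966, and it was called in none. In 11 of the 15 the values themselves did not move, since the same region stood for each gene, and GJA1 was chosen for its call, so this is no support for it. GJB1 gained a promoter region only with a 5 kb window, at 3.15. The count of all promoters called lowered, 104, became 202 at an adjusted p under 0.1, 45 at one under 0.01, 61 at a fold change over 2, 299 with the median of all regions subtracted and 60 with the trend in signal and GC content subtracted. The count called raised, 74, became 139 with the region of smallest p, 41 at an adjusted p under 0.01, 42 at a fold change over 2, and 40 with the median of all regions subtracted. The thresholds set their own shifts. Choosing the region of smallest p favours called regions, and subtracting the median of all regions, 0.16, lowers every value. The cause of the shift with the trend in signal and GC content was not tested.

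No paired analysis was possible because the table holds no value per sample. For the same reason no replicate was left out in turn, and whether 1 sample carries the GJA1 value is unknown. Depth is unknown, so its part in the wide errors of several connexin regions was not tested.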
